A study of Homo sapiens with 12 samples.

Results

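The 10 genes described here encode proteins that hand mitochondria over to autophagosomes: the receptors BNIP3, BNIP3L, FUNDC1, BCL2L13 and FKBP8, the kinase PINK1, the adaptors SQSTM1, OPTN and CALCOCO2, and the ligase MUL1. They were chosen by symbol, taking for each symbol the Ensembl identifier with the most reads, and are 10 of the 57905 identifiers in the count table. All 10 had enough reads to be tested, as had 13832 identifiers in all. Transcripts were counted in the cell line OCI-AML3, which derives from an acute myeloid leukaemia, in 12 libraries that form 4 groups of 3. SA cells received 500 µM of the compound SA for 6 days, and Vehicle cells received its vehicle for the same 6 days. sgALAS1 cells carried a guide RNA against ALAS1, sgSCR cells carried a scrambled guide, and in both the guide was switched on with doxycycline for 7 days. What SA stands for is not spelled out there; in heme research these letters stand for succinylacetone, which blocks the heme enzyme ALAD, while ALAS1 encodes the first enzyme of heme synthesis. The labels also do not say whether the SA and Vehicle cells carried a guide, or whether replicates were separate cultures, so p-values measure the spread between these libraries, which may be technical.

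Mitophagy removes mitochondria by enclosing them in an autophagosome that fuses with a lysosome. Receptors in the outer mitochondrial membrane bind the ATG8 proteins of the growing autophagosome directly. In the other route the kinase PINK1 builds up on damaged mitochondria and starts their coating with ubiquitin, which adaptor proteins then tie to ATG8 proteins. BNIP3 and BNIP3L are known targets of the hypoxia-inducible factor HIF-1, and BNIP3L is known for clearing mitochondria from maturing red cells.

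The libraries held 4658513 to 7339843 reads assigned to genes. Log2 CPM (reads scaled by library size) correlated at Pearson's r of 0.959 to 0.971 within groups, and no library stood apart by these correlations alone. ALAS1, the targeted gene, had 26.2, 26.3 and 27.3 CPM in sgALAS1, against 38.6, 41.9 and 37.4 CPM in sgSCR (log2 fold change -0.56, SE 0.14, adjusted p = 0.00777). It had 106, 102 and 111 CPM in SA, against 37.5, 36.4 and 31.1 CPM in Vehicle (1.60, SE 0.14, adjusted p = 1.36e-09). Cutting at the guide's site cannot be read from such 3′ tags. All 10 myeloid markers had reads in every group. Their summed level was 2584 to 2876 CPM in SA, against 1463 to 1592 CPM in Vehicle, and 2223 to 2436 CPM in sgALAS1, against 1395 to 1567 CPM in sgSCR. LYZ made up much of these differences, with means of 1455 CPM in SA, 564 in Vehicle, 1030 in sgALAS1 and 341 in sgSCR. The median log2 fold change of the 10 markers was 0.28 with SA and 0.34 with sgALAS1. Of these markers 3 were higher with SA (LYZ, CD14 and SPI1) and 5 with sgALAS1 (LYZ, CD14, CSF1R, ANPEP and PTPRC, the last 2 named after their values were seen), and 0 were lower in either. CSF1R had few reads, with means of 6.27 CPM in sgALAS1 and 1.21 CPM (21 reads in all) in sgSCR. Its means were 3.26 CPM in Vehicle and 3.60 CPM in SA. Across all tested genes 4.83% were higher with SA and 4.88% with sgALAS1. The 11 erythroid markers summed to at most 3.72 CPM in any library, with HBA1, HBA2, HBB and HBG1 among those at 0 reads throughout. Of 5 lymphoid markers, CD3E was at 0 reads throughout and CD3D had 0.583, 0.597 and 1.13 CPM in SA, 15.4, 12.2 and 12.7 CPM in Vehicle, 0 in all 3 sgALAS1 libraries and 5.18, 4.18 and 5.62 CPM in sgSCR. The 5 stromal and epithelial markers summed to 2.53 to 6.37 CPM in SA, against 7.17 to 9.73 CPM in Vehicle, and to 2.88 to 5.45 CPM in sgALAS1, against 1.2 to 3.86 CPM in sgSCR. COL1A2 held most of their reads, with 258 over all libraries, against 19 for COL1A1, 38 for KRT8, 30 for KRT18 and 2 for EPCAM. The part of these markers in the changes below was not tested. In bulk RNA, fewer cells expressing a gene and less of its RNA per cell cannot be told apart.

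Levels below are normalised CPM, and changes are log2 fold changes, each followed by its standard error, SE. A gene counts as changed where its adjusted p from edgeR's quasi-likelihood test was under 0.05 over all 13832 genes. With SA, 4 of the 10 genes changed. BNIP3, BNIP3L and CALCOCO2 were lower and PINK1 was higher. Across all tested genes 11.1% changed with SA, 4.83% upwards and 6.24% downwards. With sgALAS1, 3 of the 10 changed, all upwards, namely PINK1, SQSTM1 and OPTN, where the share of all tested genes was 11.7%, with 4.88% upwards and 6.85% downwards. PINK1 was the gene that changed in both comparisons. The SA change minus the sgALAS1 change passed for 2 of the 10, BNIP3L and OPTN, both negative, where it passed for 1.19% of all tested genes, 0.759% with a positive and 0.427% with a negative sign. The median change of the 10 genes was -0.06 with SA and 0.02 with sgALAS1, beside medians of -0.01 and 0.00 over all tested genes.

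**Figure D1:**
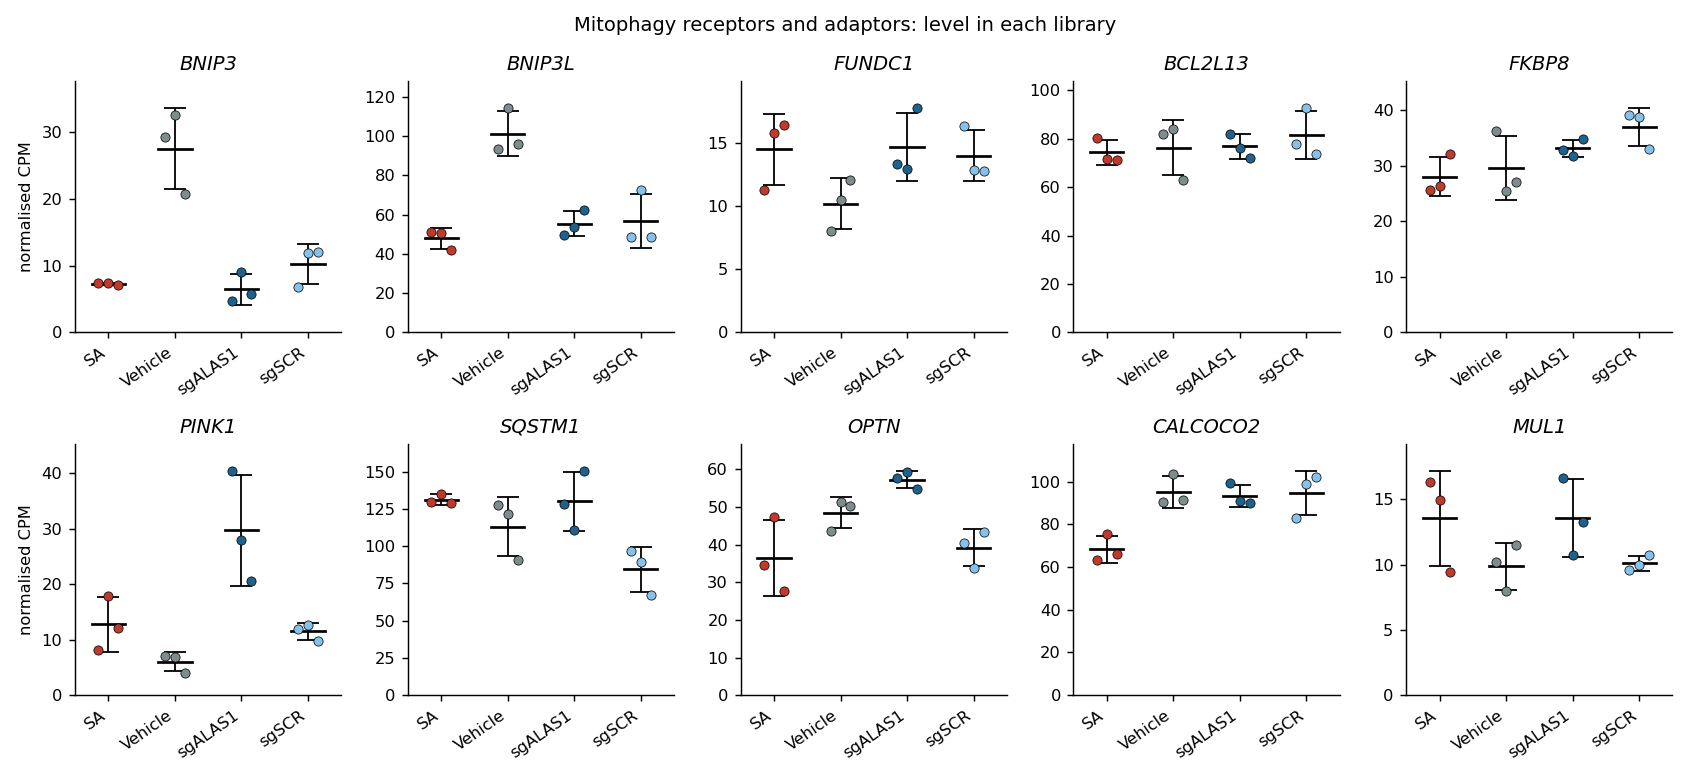
Normalised CPM of the 10 genes in each of the 12 libraries, with a panel for each gene, a point for each library and a line and bar for the mean and SD of 3 libraries. BNIP3 and BNIP3L stand highest in the 3 Vehicle libraries, and PINK1 stands highest in the 3 sgALAS1 libraries.

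The sequence around the start of BNIP3 and of CALCOCO2 is printed. They were chosen because, of the 7 genes with a start region given, only theirs held ACGTG, a core that HIF-1 is known to bind. RefSeq start regions were given for 7 of the 10 genes, each 300 bases long and on build GRCh38.p14, 12 regions in all. ACGTG on either strand was in 2 of these 12 regions (16.7%), beside 21.4% of all 35116 start regions of the table. The related letters GCGTG were also in 2 of the 12 (16.7%), that of BNIP3 and 1 of the 3 of BCL2L13, beside 36.5% of all regions. The BNIP3 region lies at chr10:131981874-131982173 on the minus strand and the CALCOCO2 region at chr17:48830785-48831084 on the plus strand. Capitals mark ACGTG or GCGTG on either strand, so that GCGTG on the opposite strand reads CACGC here.
BNIP3: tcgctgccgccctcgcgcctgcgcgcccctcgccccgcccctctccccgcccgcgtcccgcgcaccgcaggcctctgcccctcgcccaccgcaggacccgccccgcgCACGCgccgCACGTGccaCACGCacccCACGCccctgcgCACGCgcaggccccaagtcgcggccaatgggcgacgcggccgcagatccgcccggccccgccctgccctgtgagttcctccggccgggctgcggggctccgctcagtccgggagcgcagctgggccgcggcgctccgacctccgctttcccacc
CALCOCO2: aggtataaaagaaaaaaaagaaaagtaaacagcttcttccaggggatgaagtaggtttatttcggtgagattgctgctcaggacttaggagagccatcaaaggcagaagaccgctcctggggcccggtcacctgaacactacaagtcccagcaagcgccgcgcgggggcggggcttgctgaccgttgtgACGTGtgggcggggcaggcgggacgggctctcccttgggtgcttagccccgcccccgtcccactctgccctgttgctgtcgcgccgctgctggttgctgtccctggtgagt
The BNIP3 region held 4 GCGTG matches, all written CACGC, and a CACGTG in which ACGTG reads on both strands and which was counted as 2 matches. These runs started between positions -143 and -104 relative to the gene's start. CALCOCO2 held 1 ACGTG, at position -61. Of 33 start regions of hypoxia response genes, 21 held ACGTG (63.6%) and 21 held GCGTG (63.6%). Such a match describes the letters and shows no binding.

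BNIP3 (ENSG00000176171, chromosome 10) is a receptor anchored in the outer mitochondrial membrane and a relative of the BCL2 family. It had 7.38, 7.36 and 7.13 CPM in SA, against 29.2, 32.5 and 20.7 CPM in Vehicle. Every SA library lay far below every Vehicle library. The change was -1.91 (SE 0.27, adjusted p = 1.02e-05). In the guide comparison it had 4.63, 9.09 and 5.76 CPM in sgALAS1, against 6.77, 11.9 and 12.1 CPM in sgSCR. These groups overlapped, and the change of -0.67 (SE 0.29, adjusted p = 0.134) did not pass, with a 95% interval of -1.26 to -0.08. It passed without sgALAS1 replicate 2 (-1.01, adjusted p = 0.0436). The SA change minus the sgALAS1 change was -1.24 (adjusted p = 0.142).

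The control groups themselves differed for BNIP3. In sgSCR against Vehicle it was at -1.41 (SE 0.26, adjusted p = 0.0023), with no overlap, and sgALAS1, SA and sgSCR overlapped in their ranges. Of all tested genes 1.43% changed between sgSCR and Vehicle, 0.470% upwards and 0.962% downwards. BNIP3 and BNIP3L were the 2 of the 10 that did, both downwards. sgSCR and Vehicle differ in guide, doxycycline and days of culture, and these cannot be told apart. With sgSCR in place of Vehicle, BNIP3 in SA was at -0.50 (adjusted p = 0.262).

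Reads of BNIP3 may be shared with its processed copies. The table lists 42 copies, of which 7 had any read, and BNIP3P1 on chromosome 14 held 661 reads beside 927 for BNIP3 itself. Reads of the other copies came to 84. BNIP3P1 had 6.02, 7.36 and 4.38 CPM in SA, against 20.7, 20.5 and 13.6 CPM in Vehicle, a change of -1.63 (SE 0.31, adjusted p = 5.04e-04). It had 5.71, 2.54 and 5.32 CPM in sgALAS1, against 6.37, 10.1 and 7.94 CPM in sgSCR (-0.85, SE 0.33, adjusted p = 0.0941). The copy was thus also highest in the Vehicle libraries. No source used here says how the authors' counting split reads between the gene and its copy, so the value of BNIP3 alone is uncertain. With the reads of both summed, a step added after seeing the data, SA had 11.5 to 14.7 CPM, against 34.3 to 53.0 CPM in Vehicle (-1.80). The sgALAS1 libraries then had 10.3 to 11.6 CPM, against 13.1 to 22 CPM in sgSCR, without overlap, and this change passed (-0.75, adjusted p = 0.025).

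BNIP3L (ENSG00000104765, chromosome 8), also called NIX, is the closest relative of BNIP3 and serves the same membrane. It had 51.3, 50.9 and 41.8 CPM in SA, against 93.5, 114 and 96.1 CPM in Vehicle. All SA libraries stood below all Vehicle libraries. The change was -1.08 (SE 0.16, adjusted p = 1.29e-05). With the guide it had 49.9, 54.0 and 62.3 CPM in sgALAS1, against 48.8, 72.8 and 48.6 CPM in sgSCR, overlapping groups with a change of -0.04 (SE 0.16, adjusted p = 0.912) and a 95% interval of -0.36 to 0.28. The difference between these changes passed its own test, at -1.04 (SE 0.22, adjusted p = 0.00896).

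Here too the controls differed. In sgSCR against Vehicle BNIP3L was at -0.83 (SE 0.15, adjusted p = 0.00228) and the ranges were separate, while SA, sgALAS1 and sgSCR overlapped from one to the next. With sgSCR in place of Vehicle, BNIP3L in SA was at -0.25 (adjusted p = 0.331). Many genes of chromosome 8 were lower in both comparisons. The median of its other 470 tested genes was -0.25 with SA and -0.34 with sgALAS1, and 0.03 in sgSCR against Vehicle. Set against these medians BNIP3L was at -0.83 with SA and at 0.30 with sgALAS1. For the other 9 genes the corresponding medians of their chromosomes lay between -0.04 and 0.12.

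FUNDC1 (ENSG00000069509, chromosome X), a receptor known for hypoxia-induced mitophagy that phosphorylation holds in check, had 11.3, 15.7 and 16.4 CPM in SA, against 8.0, 10.5 and 12 CPM in Vehicle. The ranges overlapped and the change of 0.52 (SE 0.24, adjusted p = 0.189) did not pass. It was at 0.06 with sgALAS1 (adjusted p = 0.913). BCL2L13 (ENSG00000099968, chromosome 22), a functional counterpart of the yeast receptor Atg32, had 80.4, 71.8 and 71.2 CPM in SA, against 82.1, 83.9 and 63.2 CPM in Vehicle. FKBP8 (ENSG00000105701, chromosome 19), a membrane-anchored immunophilin that recruits LC3A, had 25.6, 26.3 and 32.1 CPM in SA, against 36.1, 25.4 and 27.1 CPM in Vehicle. Both overlapped between SA and Vehicle, with changes of -0.04 and -0.08, and both overlapped between sgALAS1 and sgSCR, with changes of -0.08 and -0.16. The 95% interval of the SA change was -0.32 to 0.24 for BCL2L13 and -0.43 to 0.27 for FKBP8. For FKBP8 an antisense gene, AC005387.1, held 649 reads on the opposite strand.

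**Figure D2:**
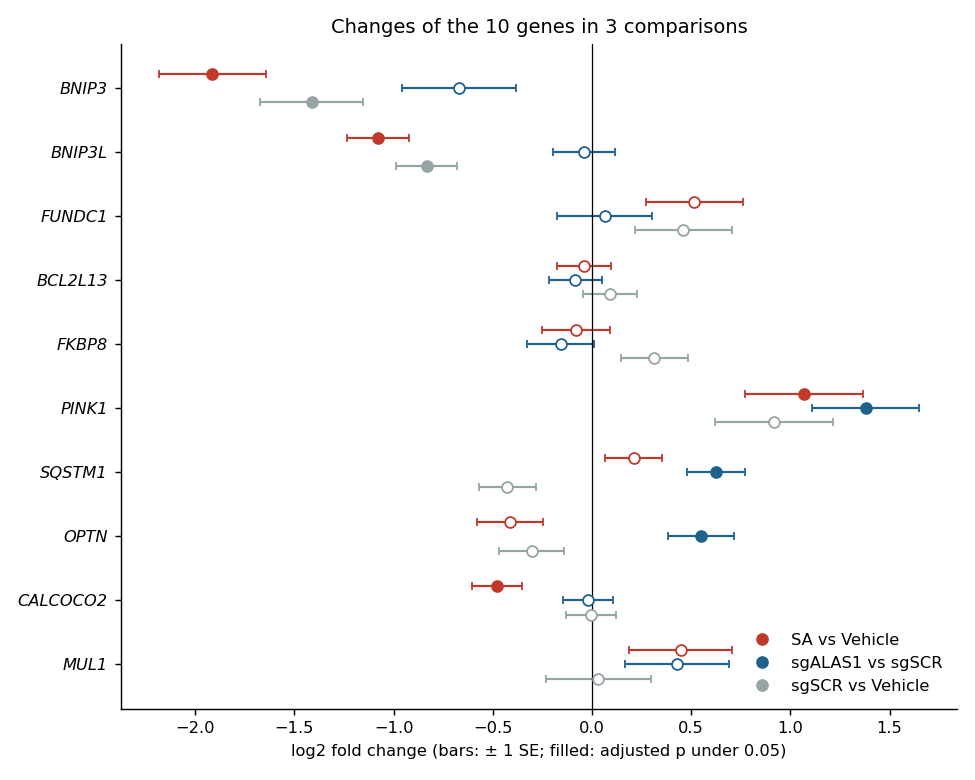
Log2 fold changes of the 10 genes in SA against Vehicle, sgALAS1 against sgSCR and sgSCR against Vehicle, with bars of 1 SE and filled points where the adjusted p was under 0.05. BNIP3 and BNIP3L lie to the left with SA and in sgSCR against Vehicle, and PINK1 lies to the right in all 3, filled for SA and sgALAS1.

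PINK1 (ENSG00000158828, chromosome 1) encodes the kinase that senses damaged mitochondria. It had 40.4, 28 and 20.6 CPM in sgALAS1, against 12, 12.7 and 9.75 CPM in sgSCR, and the lowest sgALAS1 library lay above every library of the other groups. The change was 1.38 (SE 0.27, adjusted p = 5.99e-04), and without any 1 of the 6 libraries it stayed between 1.08 and 1.59, with adjusted p-values of at most 0.0191. In the drug comparison PINK1 had 8.16, 17.9 and 12.2 CPM in SA, against 7.03, 6.94 and 4.07 CPM in Vehicle. SA and Vehicle did not overlap, and the change was 1.07 (SE 0.30, adjusted p = 0.0171). This call was lost without SA replicate 2 (0.75, adjusted p = 0.134), without Vehicle replicate 3 (0.87, adjusted p = 0.0966) and with limma-voom (1.01, adjusted p = 0.0672). The SA change minus the sgALAS1 change was -0.31 (adjusted p = 0.828, 95% interval -1.14 to 0.51). sgSCR lay above Vehicle without overlap (0.92, SE 0.30), which did not pass (adjusted p = 0.131), and with sgSCR in place of Vehicle SA was at 0.15 (adjusted p = 0.786).

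PINK1 shares its place with PINK1-AS on the opposite strand, which held 4636 reads. As the strand setting of the counting is not given, reads of these genes may not be fully told apart. PINK1-AS had 87.4, 90.3 and 72.0 CPM in sgALAS1, against 56.8, 64.1 and 51.7 CPM in sgSCR, a change of 0.53 (SE 0.14, adjusted p = 0.00853). It had 78.1, 73.4 and 73.3 CPM in SA, against 61.9, 49.2 and 51.0 CPM in Vehicle (0.47, SE 0.14, adjusted p = 0.0245). Neither pair of groups overlapped, so the antisense gene was higher in the same groups as PINK1, by less. The reads of PINK1-AS per read of PINK1 were 2.16 to 3.49 in sgALAS1, against 4.75 to 5.31 in sgSCR, and 4.10 to 9.57 in SA, against 7.10 to 12.5 in Vehicle. DDOST, a neighbouring gene, was at 0.15 with sgALAS1 and 0.15 with SA and did not pass in either (adjusted p = 0.528 and 0.506).

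SQSTM1 (ENSG00000161011, chromosome 5) encodes p62, an adaptor that binds ubiquitin and LC3 and also frees the transcription factor NRF2 from its inhibitor KEAP1. It had 129, 111 and 151 CPM in sgALAS1, against 96.8, 89.2 and 67.3 CPM in sgSCR, without overlap. The change of 0.62 (SE 0.15, adjusted p = 0.00354) passed the test without any 1 of the 6 libraries, with adjusted p-values up to 0.0438. SQSTM1 had 129, 135 and 129 CPM in SA, against 128, 121 and 90.6 CPM in Vehicle. The SA libraries were just above the highest Vehicle library, and the change of 0.21 (SE 0.14, adjusted p = 0.393) did not pass. The difference of the changes was -0.41 (adjusted p = 0.422). With sgSCR in place of Vehicle, SA was at 0.64 (adjusted p = 0.00326), and sgSCR itself was at -0.43 against Vehicle (adjusted p = 0.16; 0.0477 without Vehicle replicate 3).

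SQSTM1 is overlapped on the opposite strand by MRNIP, with 6000 reads, and MGAT4B, with 6860. MRNIP had 106, 88.5 and 108 CPM in sgALAS1, against 64.5, 68.5 and 62.3 CPM in sgSCR, without overlap (0.63, SE 0.13, adjusted p = 0.00109), and was at 0.18 with SA (adjusted p = 0.404). Its values thus followed those of SQSTM1, and reads of the pair may not be fully told apart. MGAT4B was at 0.12 with sgALAS1 (adjusted p = 0.672) and 0.28 with SA (adjusted p = 0.207).

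**Figure D3:**
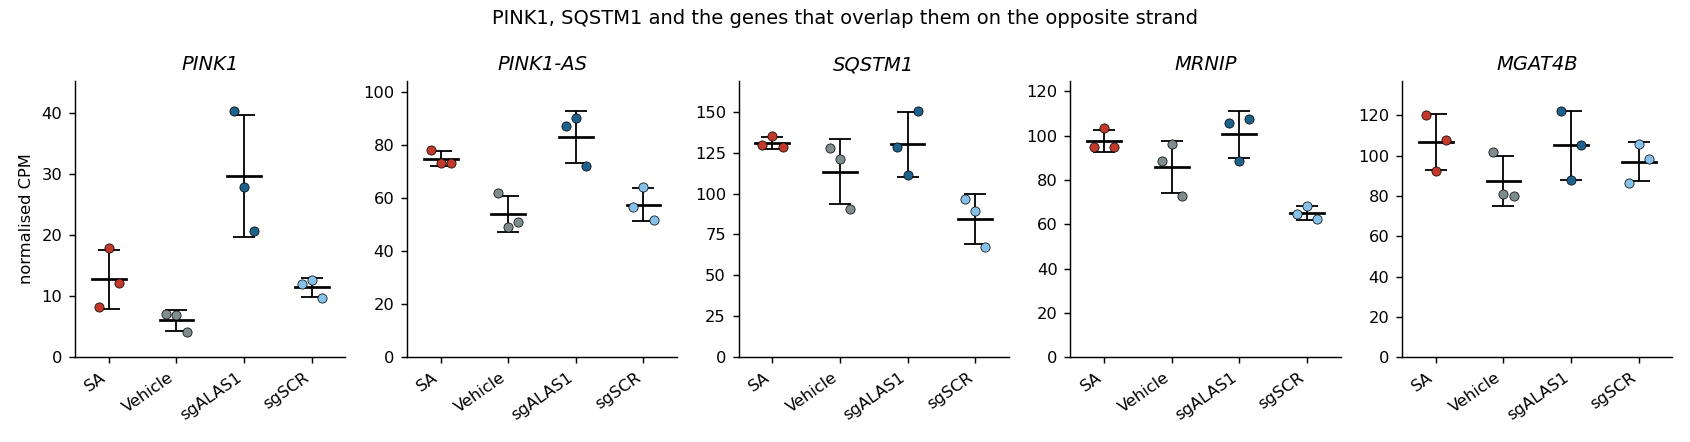
Normalised CPM in each library for PINK1 and SQSTM1 and for PINK1-AS, MRNIP and MGAT4B, which overlap them on the opposite strand, with lines and bars for the mean and SD of 3 libraries. PINK1-AS is higher in SA and sgALAS1 as PINK1 is, and MRNIP has its lowest mean in sgSCR as SQSTM1 has.

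OPTN (ENSG00000123240, chromosome 10) encodes optineurin, an adaptor activated by the kinase TBK1. It had 57.7, 59.4 and 54.7 CPM in sgALAS1, against 40.4, 33.8 and 43.5 CPM in sgSCR, without overlap. The change was 0.55 (SE 0.17, adjusted p = 0.0269). It had 34.6, 47.4 and 27.6 CPM in SA, against 43.7, 51.4 and 50.3 CPM in Vehicle, where 1 SA library reached into the Vehicle range. That change was -0.41 (SE 0.17, adjusted p = 0.112), and it passed without SA replicate 2 (-0.65, adjusted p = 0.0158). The difference between the changes passed at -0.96 (SE 0.24, adjusted p = 0.0299). The sgALAS1 call was lost without sgSCR replicate 1 or 2 or sgALAS1 replicate 1 or 2 (0.46 to 0.57, adjusted p up to 0.145). The call of the difference was lost in the same 4 cases and also without Vehicle replicate 2 or 3 or SA replicate 1 or 3 (adjusted p up to 0.144).

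CALCOCO2 (ENSG00000136436, chromosome 17) encodes NDP52, an adaptor that also recruits the initiating kinase complex. It had 63.5, 75.4 and 66.0 CPM in SA, against 90.5, 104 and 91.3 CPM in Vehicle. The SA libraries lay below all libraries of the other 3 groups. The change was -0.48 (SE 0.13, adjusted p = 0.0123), and it was -0.47 with sgSCR in place of Vehicle (adjusted p = 0.0118). The call against Vehicle was lost when SA replicate 1, SA replicate 3 or Vehicle replicate 2 was left out (-0.41 to -0.45, adjusted p 0.0635 to 0.0785). CALCOCO2 had 99.2, 91.0 and 90.0 CPM in sgALAS1, against 82.9, 99.0 and 102 CPM in sgSCR, overlapping groups with a change of -0.02 (adjusted p = 0.95, 95% interval -0.28 to 0.24). The difference of the changes was -0.46 (adjusted p = 0.271).

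MUL1 (ENSG00000090432, chromosome 1), a ubiquitin and SUMO ligase of the outer mitochondrial membrane known to act beside PINK1, had 16.3, 14.9 and 9.40 CPM in SA, against 10.2, 7.95 and 11.5 CPM in Vehicle. It had 16.7, 10.7 and 13.3 CPM in sgALAS1, against 9.56, 9.96 and 10.7 CPM in sgSCR. The ranges overlapped in both comparisons, in the second only at the edge. The changes of 0.45 (SE 0.26) and 0.43 (SE 0.26) did not pass (adjusted p = 0.302 and 0.328).

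Ordered by mean level, Vehicle was at the top for BNIP3, BNIP3L and CALCOCO2 and at the bottom for FUNDC1, PINK1 and MUL1. For CALCOCO2 this was a near tie, with means of 95.2 CPM in Vehicle, 94.7 in sgSCR and 93.4 in sgALAS1. Means of MUL1 were also close in Vehicle (9.89 CPM) and sgSCR (10.1 CPM). For OPTN the order from low to high was SA, sgSCR, Vehicle and sgALAS1, and neighbours other than SA and sgSCR had separate ranges. For SQSTM1, BCL2L13, FKBP8 and MUL1 all neighbours in the order overlapped.

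Of 27 tested hypoxia response genes, a list that does not hold BNIP3 or BNIP3L, 14 were lower with SA and 0 higher. CA9, ADM and EGLN3 were also listed but had too few reads to be tested (0, 6 and 5 over all libraries). Of all tested genes 6.24% were lower and 4.83% higher with SA. The median change of the 27 was -0.62. ZNF395 had 15.5, 18.3 and 22.5 CPM in SA, against 56.0, 70.2 and 57.7 CPM in Vehicle (-1.70, SE 0.18, adjusted p = 8.36e-08). It lies on chromosome 8, and relative to the median of the other genes there it was at -1.44 with SA and -0.26 with sgALAS1. ALDOC, an aldolase of glycolysis, was at -1.55 (SE 0.19, adjusted p = 9.22e-07) and P4HA1, a collagen prolyl hydroxylase, at -1.06 (SE 0.14, adjusted p = 4.86e-06). With sgALAS1, 5 of the 27 were lower and 1 higher, with a median of -0.18, beside 6.85% lower and 4.88% higher of all tested genes. The lower genes included FAM162A (-0.66), ERO1A, an oxidase of the endoplasmic reticulum (-0.64), ZNF395 (-0.60) and P4HA1 (-0.57), and the fifth, MXI1 (-0.54), was named after its value was seen. PFKFB3, which speeds glycolysis, was higher (0.80, SE 0.17, adjusted p = 0.00119). The P4HA1 call was lost without sgSCR replicate 2 (-0.44, adjusted p = 0.0903), and that of ZNF395 without sgSCR replicate 2 or sgALAS1 replicate 1 or 2 (adjusted p up to 0.195). In sgSCR against Vehicle 7 of the 27 were lower and 0 higher, with a median of -0.37. The shares of all tested genes were 0.962% lower and 0.470% higher there. SA and sgSCR share the Vehicle libraries as control. With sgSCR in place of Vehicle, P4HA1 in SA was at -0.38 and did not pass (adjusted p = 0.0813).

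**Figure D4:**
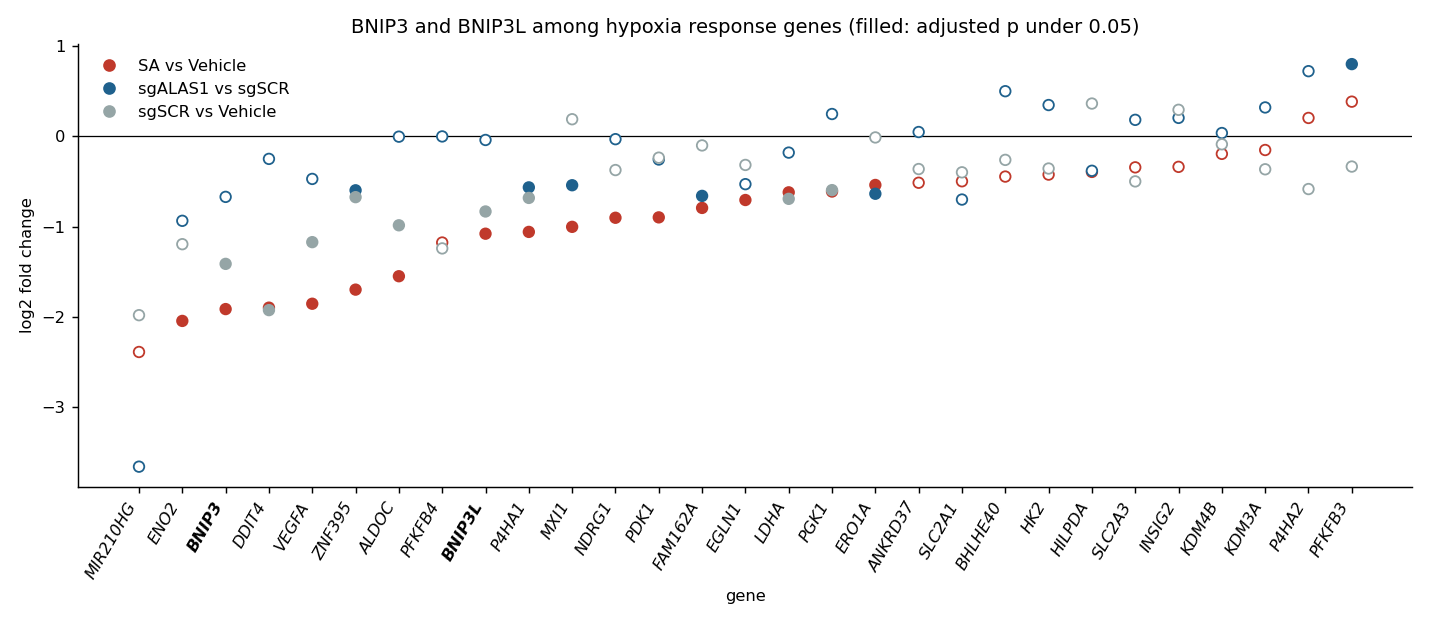
Log2 fold changes of 27 hypoxia response genes with BNIP3 and BNIP3L (bold), ordered by the SA change, for SA against Vehicle, sgALAS1 against sgSCR and sgSCR against Vehicle, with filled points where the adjusted p was under 0.05. Of the 27, 14 are filled and below 0 for SA, 5 for sgALAS1 and 7 for sgSCR against Vehicle.

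Of 20 tested genes known to control BNIP3, BNIP3L or FUNDC1, 1 was higher and 2 lower with SA, with a median of -0.16. Counts of called genes, here and in the next paragraphs, are to be read beside the shares over all tested genes. These shares were 11.1% with SA, 11.7% with sgALAS1 and 1.43% in sgSCR against Vehicle. ARNT, the partner subunit of HIF-1α, had 59.5, 65.7 and 64.9 CPM in SA, against 44.7, 47.0 and 42.5 CPM in Vehicle (0.50, SE 0.14, adjusted p = 0.019). EGLN1, the prolyl hydroxylase that marks HIF-1α for decay, was at -0.71 (SE 0.23, adjusted p = 0.04), and CSNK2B, the regulatory subunit of casein kinase 2 that phosphorylates FUNDC1, at -0.35 (SE 0.11, adjusted p = 0.0305). EGLN1 lost its call without any 1 of the 6 libraries (adjusted p 0.0576 to 0.128), CSNK2B without any but SA replicate 2 (up to 0.125), and ARNT without Vehicle replicate 3 or SA replicate 2 or 3 (up to 0.071). With sgALAS1, 2 were higher and 2 lower, with a median of -0.07. ARNT had 78.4, 69.6 and 83.6 CPM in sgALAS1, against 44.8, 51.3 and 62.8 CPM in sgSCR (0.54, SE 0.14, adjusted p = 0.00927; 0.0825 without sgSCR replicate 1). SRC, a kinase that acts on FUNDC1, was at 1.29 (SE 0.40, adjusted p = 0.0295), CSNK2A1, the catalytic subunit of casein kinase 2, at -0.34 (SE 0.11, adjusted p = 0.0449), and PPTC7, a mitochondrial phosphatase that limits BNIP3 and BNIP3L, at -0.51, the last named after its value was seen. SRC lost its call without sgSCR replicate 2 or 3 or sgALAS1 replicate 2 or 3 (up to 0.17), and CSNK2A1 without any library but sgSCR replicate 3 (up to 0.176).

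Among 25 tested genes of the PINK1 pathway, 0 were higher and 2 lower with SA, with a median of -0.02, and 0 higher and 3 lower with sgALAS1, with a median of -0.04. VDAC3, a channel of the outer membrane that is coated with ubiquitin in the PINK1 pathway, had 102, 100 and 97.3 CPM in SA, against 149, 134 and 172 CPM in Vehicle (-0.60, SE 0.12, adjusted p = 9.18e-04). It had 82.6, 98.5 and 94.2 CPM in sgALAS1, against 146, 139 and 154 CPM in sgSCR (-0.68, SE 0.12, adjusted p = 2.14e-04). VDAC3 was lower without overlap in both comparisons and is, like BNIP3L, a gene of chromosome 8, relative to whose median it was at -0.35 with SA and -0.34 with sgALAS1. VDAC1 was lower with SA (-0.40, SE 0.12, adjusted p = 0.0251). CISD1, an iron-sulfur protein of the outer membrane, was lower with sgALAS1 (-0.54, SE 0.15, adjusted p = 0.013), as was TIMM50, part of the inner membrane import machinery (-0.48, SE 0.15, adjusted p = 0.0307). VDAC1 lost its call without Vehicle replicate 2 or 3 or SA replicate 3 (adjusted p up to 0.174), CISD1 without sgSCR replicate 1 or sgALAS1 replicate 3 (up to 0.0795), and TIMM50 without sgSCR replicate 1 or 2 or sgALAS1 replicate 1 or 2 (up to 0.2).

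Of 17 other selective autophagy receptors, 0 were higher and 1 lower with SA and 1 higher and 1 lower with sgALAS1, with medians of 0.13 and 0.17. CCPG1, a receptor for removal of the endoplasmic reticulum, had 142, 134 and 147 CPM in sgALAS1, against 56.0, 88.1 and 65.6 CPM in sgSCR (1.01, SE 0.15, adjusted p = 1.33e-05). It was at 0.16 with SA (adjusted p = 0.551), and this difference passed (-0.85, SE 0.21, adjusted p = 0.0338). NIPSNAP2, a matrix protein shown on damaged mitochondria, was at -0.46 with SA and -0.52 with sgALAS1. It lost the SA call without Vehicle replicate 1 or 2 or SA replicate 2 or 3 (adjusted p up to 0.25) and the sgALAS1 call without sgSCR replicate 2 or any 1 sgALAS1 library (up to 0.112).

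Of 21 genes of autophagy initiation and nucleation, 1 was higher and 2 lower with SA, and 2 were higher and 1 lower with sgALAS1, with medians of 0.00 and 0.27. WIPI1, a phosphoinositide-binding protein of the forming membrane, had 14.0, 11.7 and 13.9 CPM in SA, against 6.34, 4.74 and 4.07 CPM in Vehicle (1.37, SE 0.32, adjusted p = 0.00393). It had 15.9, 10.7 and 8.42 CPM in sgALAS1, against 6.37, 5.46 and 2.98 CPM in sgSCR (1.26, SE 0.32, adjusted p = 0.00821). WIPI1 was higher without overlap in both comparisons; the second call was lost without sgSCR replicate 3 or sgALAS1 replicate 1 (adjusted p up to 0.0953). RB1CC1, the FIP200 scaffold that binds CALCOCO2, had 71.9, 78.2 and 72.8 CPM in SA, against 112, 135 and 128 CPM in Vehicle (-0.75, SE 0.12, adjusted p = 8.12e-05), and is on chromosome 8 as well (-0.50 relative to its median). It was at -0.38 with sgALAS1 (adjusted p = 0.0405), a call lost without sgSCR replicate 1 or 2 or sgALAS1 replicate 1 or 3 (up to 0.166), and at -0.039 relative to the chromosome. WDR45, a relative of WIPI1, was lower with SA (-1.05, SE 0.29, adjusted p = 0.0185; up to 0.0727 without Vehicle replicate 2 or SA replicate 3) and turned to 0.20 with sgSCR in place of Vehicle. ATG2A, a lipid transfer protein, was higher with sgALAS1 (0.71, SE 0.19, adjusted p = 0.0122; 0.0751 without sgSCR replicate 3).

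Of 16 tested genes of the ATG8 family and its conjugation, 2 were higher with SA and 3 with sgALAS1 and 0 were lower in either, with medians of 0.19 and 0.25. GABARAPL1, an ATG8 protein, had 16.1, 16.5 and 15.4 CPM in SA, against 8.69, 11 and 5.84 CPM in Vehicle (0.91, SE 0.24, adjusted p = 0.0131; 0.0898 without Vehicle replicate 3). It was at 0.70 with sgALAS1 (adjusted p = 0.0456), a call lost without any 1 library but sgSCR replicate 1 (up to 0.175). GABARAP was higher with SA (0.35, adjusted p = 0.0414), a call kept only where Vehicle replicate 1 was the library left out (otherwise up to 0.167). MAP1LC3A (0.50, adjusted p = 0.0129) and the protease ATG4B (0.47, adjusted p = 0.0298) were higher with sgALAS1. The MAP1LC3A call was lost without sgSCR replicate 1 or sgALAS1 replicate 2 (up to 0.0712), and that of ATG4B without sgSCR replicate 1 or 2 or sgALAS1 replicate 1 or 3 (up to 0.184).

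Of 16 autophagy transcription factors and SQSTM1 partners, 3 were higher with SA, with a median of 0.26, and 0 were called with sgALAS1, where 1 had an unadjusted p under 0.05 and the median was 0.16. TFEB, the factor best known for switching on lysosomal genes, had 21.0, 5.17 and 13.8 CPM in SA, against 6.34, 5.92 and 4.42 CPM in Vehicle (1.25, SE 0.39, adjusted p = 0.0358). These groups overlapped, and the call was lost without SA replicate 1 or 3 or Vehicle replicate 2 or 3 (adjusted p up to 0.312) and with limma-voom (0.111). Its relative TFE3 was at 0.79 (SE 0.24, adjusted p = 0.0293; up to 0.153 without Vehicle replicate 2 or 3 or SA replicate 2 or 3). MAP3K3, a kinase bound by SQSTM1, was at 0.51 (SE 0.15, adjusted p = 0.0288; up to 0.198 without Vehicle replicate 2 or 3 or SA replicate 3). Of 18 fission and fusion genes, 1 was lower with SA, MTFP1, a promoter of fission (-0.87, SE 0.21, adjusted p = 0.00725; 0.0577 without SA replicate 3), and 0 were called with sgALAS1, where 4 had an unadjusted p under 0.05. Their medians were 0.00 and 0.02.

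**Figure D5:**
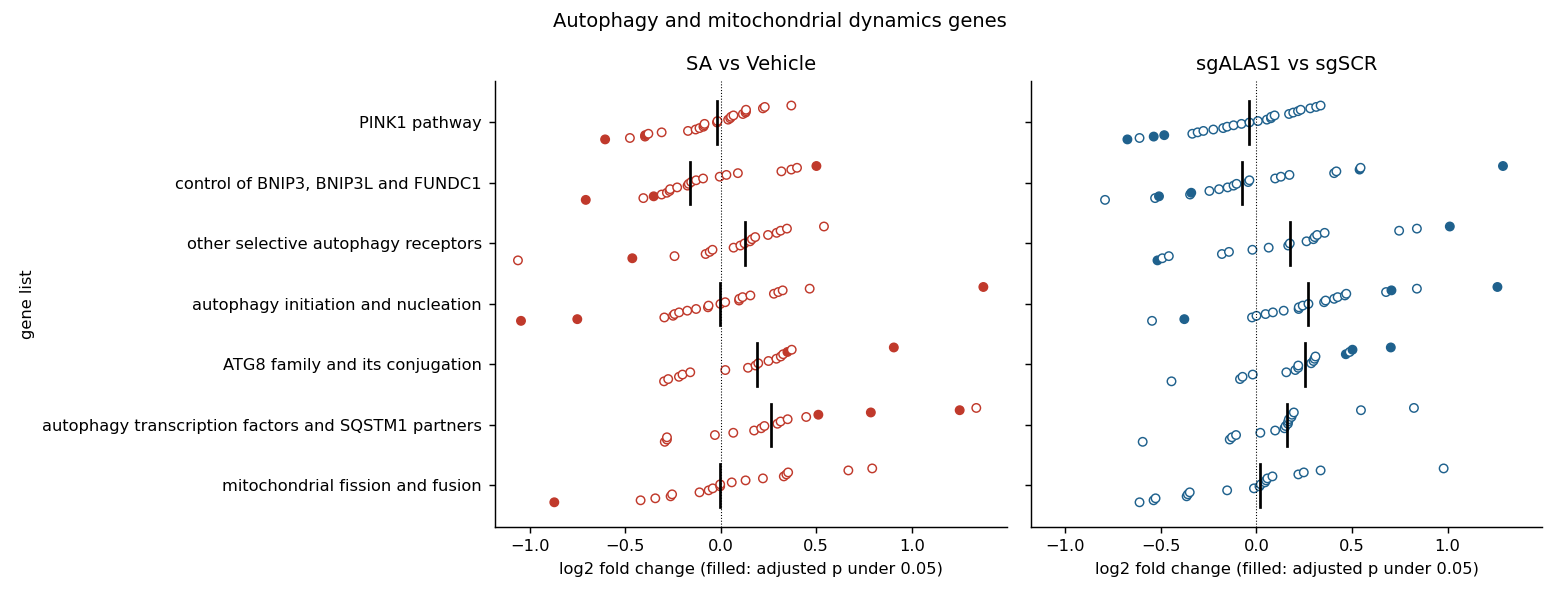
Log2 fold changes of every tested gene in 7 lists of autophagy and mitochondrial genes, for SA against Vehicle and sgALAS1 against sgSCR; filled points had an adjusted p under 0.05, vertical bars are list medians, and the height of a point within its row only separates it from its neighbours. Most points are open and lie within 0.5 of 0 on the log2 scale.

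SQSTM1 is itself a known target of NRF2. Of 14 tested NRF2 targets, a list without SQSTM1, 8 were higher and 1 lower with SA and 4 higher and 0 lower with sgALAS1, with medians of 0.52 and 0.24. NQO1, a quinone reductase, had 114, 123 and 115 CPM in SA, against 26.8, 17.3 and 28.7 CPM in Vehicle (2.27, SE 0.15). It had 110, 122 and 132 CPM in sgALAS1, against 56.2, 46.4 and 49.3 CPM in sgSCR (1.26, SE 0.15), so that the treated groups stood at like levels and the controls apart. The ferritin heavy chain FTH1 was at 0.91 (SE 0.10) with SA and 0.87 (SE 0.10) with sgALAS1, and HMOX1, which degrades heme, at 3.66 (SE 0.35) and 2.58 (SE 0.41).

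Of the 13 mRNAs encoded by mitochondrial DNA, 7 were higher with SA, 0 with sgALAS1 and 5 in sgSCR against Vehicle. 2 of the 13 had an unadjusted p under 0.05 with sgALAS1. Together they held 77721 to 82062 CPM in SA, against 66568 to 73322 CPM in Vehicle, and 89931 to 91693 CPM in sgALAS1, against 81790 to 100256 CPM in sgSCR. SA lay above Vehicle without overlap, sgSCR also lay above Vehicle without overlap, and sgALAS1 lay within the range of sgSCR. MT-ATP8 was at 0.82 (SE 0.13, adjusted p = 5.01e-05) in SA against Vehicle and at -0.03 with sgSCR in place of Vehicle.

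For BNIP3, BNIP3L and SQSTM1 the genes with the most similar log2 CPM over the 12 libraries were taken from 9560 tested genes by Pearson's r, as a description without a test, since the libraries share their groups. For BNIP3 they were UBE2J1 (r = 0.951), CHAC1, MCM6, SLC38A2 and ATF4 (r = 0.944). UBE2J1 had 64.3, 64.1 and 57.2 CPM in SA and 98.5, 94.4 and 104 CPM in Vehicle, and 55.1, 62.7 and 61.2 CPM in sgALAS1 and 58.0, 73.6 and 72.7 CPM in sgSCR, so that Vehicle was again the highest group. For BNIP3L they were an unnamed gene of chromosome 17, ENSG00000265168 (r = 0.95), ALDOC (r = 0.948), EVI2A, N4BP2L2 and CDC5L (r = 0.903). ENSG00000265168 had 343 reads in SA, 1172 in Vehicle, 513 in sgALAS1 and 545 in sgSCR, and ALDOC had 351, 1189, 525 and 560, so nearly the same reads may have been counted for both and they may be 1 signal. ALDOC, also on chromosome 17, had 23.3, 21.3 and 20.1 CPM in SA, 63.7, 68.4 and 57.2 CPM in Vehicle, 34, 29.3 and 31.9 CPM in sgALAS1 and 21.9, 43.9 and 29.3 CPM in sgSCR. For SQSTM1 they were MRNIP (r = 0.929), which overlaps it, HPS6, H2AC6, RDX and PCNX1 (r = 0.879).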

How the data were processed

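QuantSeq 3′ mRNA libraries of OCI-AML3 were made from polyadenylated RNA, per the labels' protocols. Per the submitters' processing notes, the tools were bcl2fastq 2.17.1.14, cutadapt 1.14, HISAT2 2.0.4 with build hg19, featureCounts of Subread 2.0.0, edgeR 3.34.0 and limma 3.48.3. How multi-mapping reads were treated, the strand setting and the annotation release are not given in these sources. The deposited table holds raw counts per Ensembl identifier, and its 12 columns were matched to samples by the names in the labels.

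Calculations used R 4.3.3 with edgeR 4.0.16. The function filterByExpr kept 13832 of 57905 identifiers. TMM factors scaled the 12 libraries, 1 fit held all 4 groups, and the two-sided quasi-likelihood F-test was used with Benjamini-Hochberg adjustment over all tested genes and a threshold of 0.05. Biological variation between libraries had a coefficient of 16.4%. An SE is the log2 fold change divided by the square root of F. The depth of 4658513 to 7339843 reads limits the precision of genes near 10 CPM. Names and chromosomes came from current tables and GENCODE 29, and start regions from RefSeq on GRCh38.p14, whose coordinates are not those of hg19. The fit was tested on simulated counts.

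The 10 genes and the lists were chosen with earlier results of these data known. Beside the 10 and the markers, the text names ALAS1, genes that overlap or copy a member, and DDOST, a neighbour of PINK1. From each list it names up to 3 genes with the smallest p among those called in each arm. It also names the 5 genes most similar to each of BNIP3, BNIP3L and SQSTM1 whose mean log2 CPM was 3 or more. Genes outside these rules are marked. Alternatives were other scalings, filters and tests (DESeq2 1.42.0, limma-voom of limma 3.58.1), each library left out, a replicate block, and fits of the compared groups alone.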

Additional observations from a re-analysis of the deposited data

Results flagged for a closer look

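For 8 of the genes named above the change with SA and the change with sgALAS1 differed by the test of the difference itself, given as SA change minus sgALAS1 change. Among the mitophagy genes these were BNIP3L (-1.04, adjusted p = 0.00896) and OPTN (-0.96, adjusted p = 0.0299). Among the hypoxia response genes they were ALDOC (-1.54, adjusted p = 8.21e-04) and ZNF395 (-1.10, adjusted p = 0.0159). In that whole list 4 of 27 tested genes passed this test, all negative, beside 1.19% of all tested genes. The median difference of the 27 was -0.53. ENSG00000265168, whose reads nearly equal those of ALDOC, differed by -1.56 (adjusted p = 8.72e-04), and ALAS1, the gene the guide targets, by 2.16 (adjusted p = 1.14e-08). NQO1, an NRF2 target, differed by 1.01 (adjusted p = 0.00788), and CCPG1, a receptor for the endoplasmic reticulum, by -0.85 (adjusted p = 0.0338). For BNIP3L, ALDOC, ZNF395 and NQO1 the control groups themselves differed, with sgSCR against Vehicle at -0.83, -0.99, -0.67 and 1.06 and adjusted p-values of 0.00228, 0.00228, 0.0328 and 1.68e-04. ENSG00000265168 was at -1.01 there (adjusted p = 0.00228), and ALAS1 at 0.17 (adjusted p = 0.695). For OPTN and CCPG1 it was at -0.30 in each and did not pass (adjusted p = 0.463 and 0.412). By its definition each of these differences holds the change in sgSCR against Vehicle as a part. Why the control groups differed was not tested.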

How the results depend on the processing

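With sgSCR in place of Vehicle, chosen after seeing the data, 2 of the 10 genes (CALCOCO2 and SQSTM1) were called in SA, and of 40 results 22 kept their direction and call, 15 lost the call, 1 gained it and 2 turned direction, MT-ATP8 to -0.029 and WDR45 to 0.20. The difference of the changes was called for 277 genes without a filter on low counts, against 164 with it, and sgSCR against Vehicle for 300 genes by DESeq2, against 198. Calls of list genes were lost without the filter for CSNK2B, GABARAP, MAP3K3 and NIPSNAP2 with SA and ATG4B, CSNK2A1, GABARAPL1 and RB1CC1 with sgALAS1 (adjusted p 0.0601 to 0.127), when the compared groups alone were fitted for CSNK2B, GABARAP, NIPSNAP2 and VDAC1 (up to 0.0751), and with a filter of 1 CPM for NIPSNAP2 (0.0501) and CSNK2A1 (0.0529), the last also with upper-quartile scaling (0.0538). The difference for MUL1 turned to -0.016 with limma-voom, and BNIP3L with sgALAS1 turned to 0.30 relative to chromosome 8. With 1 library left out, genes called numbered 954 (without SA replicate 3; 955 without Vehicle replicate 2, 982 without SA replicate 1) to 1595 for SA, 1134 to 1415 for sgALAS1, 109 (without sgSCR replicate 1) to 340 (without Vehicle replicate 1) for the difference, with 1 to 2 of the 10 genes, and 84 (without sgSCR replicate 1; 104 without Vehicle replicate 2) to 276 for sgSCR against Vehicle. Uncalled changes that turned direction ranged, with SA, from -0.15 to 0.030 for BCL2L13 and -0.19 to 0.10 for FKBP8. With sgALAS1 they ranged from -0.15 to 0.030 for BCL2L13, -0.11 to 0.039 for CALCOCO2, -0.078 to 0.18 for FUNDC1 and -0.14 to 0.19 for BNIP3L. For the difference they ranged from -0.065 to 0.12 for BCL2L13, -0.026 to 0.26 for FKBP8 and -0.14 to 0.24 for MUL1, and for sgSCR against Vehicle from -0.031 to 0.16 for BCL2L13, -0.075 to 0.081 for CALCOCO2 and -0.10 to 0.14 for MUL1. The causes were not tested. Same-numbered libraries of an arm showed no clear shared deviation (r -0.0661 to 0.0572 between them). With 3 libraries a group, this cannot show whether the numbers pair the samples. With a replicate block the genes called numbered 1704 with SA, 1796 with sgALAS1, 227 for the difference and 266 for sgSCR against Vehicle. Of the 10 genes 4, 3, 2 and 2 were then called. Genes near 10 CPM, such as FUNDC1 and MUL1, have SEs of about 0.24 to 0.26, so small changes in them were not detectable at this depth.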
